A study of Mus musculus with 6 samples.

Results

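The genes described here encode the proteasome, its regulators and its assembly factors. They were chosen by name, as every gene whose only platform symbol begins with Psm, a letter from a to g and a number, and 49 of the 18193 genes measured met this rule. They were read by 103 probe sets, 1 to 8 per gene, and for each gene the probe set with the highest mean over the arrays was used. One further probe set carried a symbol of this kind together with another symbol and was not used. The cells were common myeloid progenitors (CMP) from the bone marrow of C57BL6 mice, flushed from femurs, tibiae and ilia. CMP give rise to granulocyte-monocyte and to megakaryocyte-erythrocyte progenitors. The cells took up H2-DCFDA, which turns fluorescent once oxidised by reactive oxygen species (ROS), and cells of low and of high ROS content, each 15% to 20% of all CMP, were sorted. The stated question was the role of ROS as CMP become megakaryocyte-erythrocyte progenitors. There are 6 one-colour arrays, with 3 per ROS group, and no other treatment or allele is named. The age and number of the mice are not given, nor whether a group's 3 samples were separate animals, so the p-values cover only the spread between the arrays in hand, which could be technical.

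The 26S proteasome degrades proteins that have been tagged with ubiquitin. Its 20S core is a barrel of alpha and beta rings with the cutting sites inside, and the 19S regulatory particle recognises, unfolds and feeds in the tagged protein. Interferon-inducible catalytic subunits can replace the constitutive ones to form the immunoproteasome, which is common in blood cells and shapes the peptides presented on MHC class I. The core can also degrade oxidised proteins, and the transcription factors Nrf1 (gene Nfe2l1) and Nrf2 are known regulators of proteasome genes.

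Array medians lay between 40.4 and 42.5, and 47 of the 49 genes had a mean above that of the median gene. High-ROS replicate 3 stood apart, at one end of the first principal component of all genes (33.2% of the variance), with low-ROS replicate 1 at the other. The cells carried the signals of myeloid progenitors and also of mature cells. Kit lay between 523 and 749 and Mpo between 6543 and 7494. Of 9 mature neutrophil markers 8 were measured, with a summed signal of 49260 to 52292 in low-ROS and 48908 to 50331 in high-ROS CMP, and S100a8 between 12273 and 13258. Of 8 red cell precursor markers 5 were measured, at 8529 to 8710 in low-ROS and 6611 to 8070 in high-ROS CMP, mostly Slc4a1, with Hba-a1 at most 8.43. B cell markers (6 of 7 measured) summed to 2349 to 2956 and 2196 to 2780, T cell markers (6 of 7) to 525 to 604 and 482 to 641, and macrophage and dendritic cell markers (9 of 9) to 1211 to 1474 and 1311 to 1573. Deposited intensities started at 0.8 and carry no detection call, so a marker's signal alone does not show that its cell type was present. Of the 10 listed progenitor markers, 5 were higher and 5 lower in high-ROS CMP. Of the mature neutrophil markers 0 were higher and 8 lower, and of the red cell precursor markers 2 and 3. B cell markers were 3 higher and 3 lower, T cell markers 5 and 1, and macrophage and dendritic cell markers 4 and 5 (54.0% of all genes were higher). Gata2, a factor of stem and megakaryocyte-erythrocyte progenitors, was lower on every high-ROS array (236 to 331, against 472 to 494, log2 fold change -0.72, adjusted p = 0.264 by limma). Flt3 and Cd34 went the other way, at 0.56 and 0.40, with groups that overlapped. Flt3 and Cd34 were picked after their values were seen. The part of these markers in the proteasome values was not tested, and in such bulk samples fewer cells of a type and less RNA per cell cannot be told apart.

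No proteasome gene passed the test. Of the 49 genes, at an adjusted p under 0.05 in limma (Benjamini-Hochberg over all genes) 0 were higher and 0 lower in high-ROS cells, where 0.055% of all genes passed, and the smallest adjusted p was 0.587. At an unadjusted p under 0.05, 2 genes were higher (4.44% of all genes were) and 0 were lower (3.37%). These were Psmd13 and Psmd9. The mean was higher in high-ROS CMP for 27 genes and lower for 22, a share of 55.1% higher against 54.0% of all genes. The median log2 fold change was 0.02, the same to 2 decimals as the 0.02 over all genes. Log2 fold changes here are high-ROS minus low-ROS, on the scale of the deposited signal plus 16. They lay within 0.3 of 0 for 45 of the 49 genes (91.8%, against 81.8% of all genes). The members were mostly brighter than the median gene, and their median SE was smaller, 0.143 against 0.181 over all genes. The 95% intervals of single genes reached a median of 0.31 to either side of the estimate, so smaller differences were not resolved by 3 arrays per group. In 7 genes every high-ROS array lay above every low-ROS array, 14.3% of the members against 8.04% of all genes, and in 0 genes every one lay below (5.32%). The 7 were Psma1, Psmb10, Psmc2, Psmc4, Psmd11, Psmd13 and Psmg3.

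**Figure D1:**
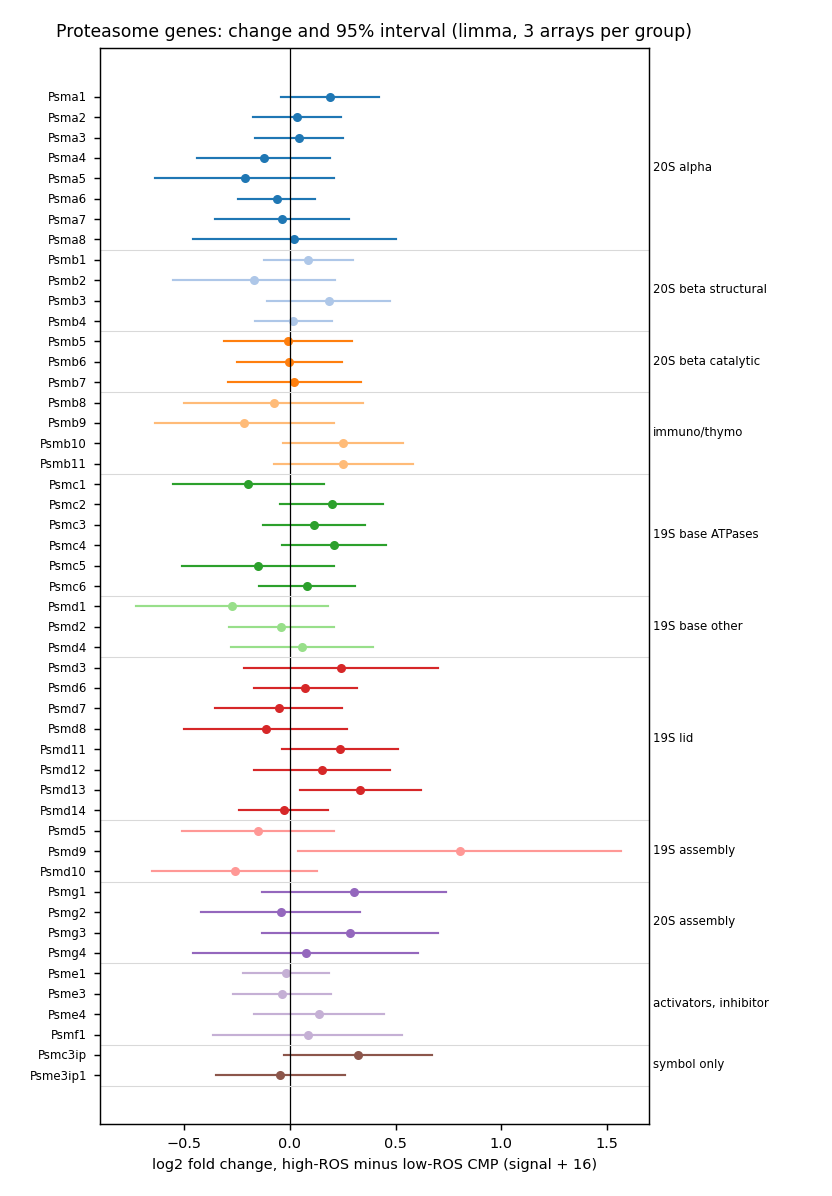
Log2 fold change (x axis, high-ROS minus low-ROS CMP, signal plus 16) of the 49 genes (y axis, grouped by class) as points, with 95% intervals from limma as lines, 3 arrays per group. The intervals of Psmd13 and Psmd9 lie above 0 before adjustment, and the other 47 cross 0.

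Genes of the 20S core, without its inducible subunits, differed little between the groups. Of these 15 genes, 8 were higher and 7 lower, and the median log2 fold change was 0.02 (range -0.21 to 0.19). These counts moved with single arrays: 14 of the 15 were higher once high-ROS replicate 3 was left out, 5 when it was high-ROS replicate 2 and 4 when it was replicate 1 of the low-ROS group. After quantile normalization 11 were higher, and 14 with the Gapdh control ratio as a covariate. Among the alpha subunits, which form the outer rings and gate the entry to the barrel, Psma1 had the smallest p. Its signal was 994, 1055 and 984 on low-ROS replicates 1 to 3 and 1218, 1109 and 1139 on high-ROS replicates 1 to 3. The groups did not overlap, and the log2 fold change was 0.19 (SE 0.105, adjusted p = 0.689). Psma6, another alpha subunit, had 2811, 2932 and 2871 on the low-ROS and 2633, 2907 and 2718 on the high-ROS arrays, which overlapped (log2 fold change -0.06). Psma5 had its highest signal, 1729, and its lowest, 920, on high-ROS arrays, so the spread within that group exceeded the difference between the means (log2 fold change -0.21, 95% interval -0.64 to 0.21, and 0.0124 without high-ROS replicate 3). Psma8, an alpha subunit of the testis proteasome, stayed near background, between 47.1 and 75.9 on the 6 arrays.

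Of the structural beta subunits, Psmb1, Psmb2, Psmb3 and Psmb4, 3 were higher and 1 was lower. Psmb3 had 973, 1333 and 1262 on the low-ROS and 1393, 1395 and 1239 on the high-ROS arrays, a log2 fold change of 0.18 (SE 0.132). Low-ROS replicate 1 was its lowest array, and the remaining values of both groups overlapped. Psmb4 had 2484 ± 40.4 (SD, n = 3) in low-ROS CMP, against 2513 ± 87.9 in high-ROS CMP (log2 fold change 0.02). Psmb2 had its lowest value, 773, on high-ROS replicate 3, with 1122 and 1316 on the other high-ROS arrays and 1058 to 1300 on the low-ROS arrays. Its log2 fold change was -0.17, and 0.0442 without that array.

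The catalytic subunits were compared as pairs that occupy the same place in the beta ring. Psmb5, Psmb6 and Psmb7 carry the chymotrypsin-like, caspase-like and trypsin-like activities of the constitutive core, and Psmb8, Psmb9 and Psmb10 (Entrez genes 16913, 16912 and 19171) replace them in the immunoproteasome. The signals of all 6 lay between 571 and 1746, far above the array medians. Psmb5 had 729 ± 82.2 (SD, n = 3) in low-ROS CMP, against 725 ± 89.2 in high-ROS CMP, with a log2 fold change of -0.01 (95% interval -0.31 to 0.29). Psmb6 had 966 ± 57.3 and 965 ± 72.8, a log2 fold change of -0.0025 (95% interval -0.25 to 0.25). Psmb7 had 1268 ± 91.9 and 1301 ± 247, a log2 fold change of 0.02 (95% interval -0.29 to 0.34, and 0.19 without high-ROS replicate 3). All 3 genes had group means that differed by less than the SD between arrays.

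Psmb8 and Psmb9 varied more between the high-ROS arrays. Psmb8 had 1042, 1039 and 934 on the low-ROS and 1040, 1244 and 663 on the high-ROS arrays (log2 fold change -0.08, 95% interval -0.50 to 0.35). Psmb9 had 1431, 1563 and 1381 on the low-ROS and 1252, 1746 and 898 on the high-ROS arrays (log2 fold change -0.22, 95% interval -0.64 to 0.21). For both genes the highest and the lowest of the 6 values lay in the high-ROS group, on replicates 2 and 3. Without high-ROS replicate 3, their log2 fold changes were 0.18 and 0.0215. Psmb10 showed another pattern, with 709, 699 and 571 on the low-ROS and 830, 771 and 754 on the high-ROS arrays. Its groups did not overlap, and its log2 fold change was 0.25 (SE 0.129, adjusted p = 0.665). Psmb11, the catalytic subunit of the thymus proteasome, was near the lowest signals of the arrays, of at most 9.79, where a log2 fold change (0.25 here) is set by a few signal units.

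**Figure D2:**
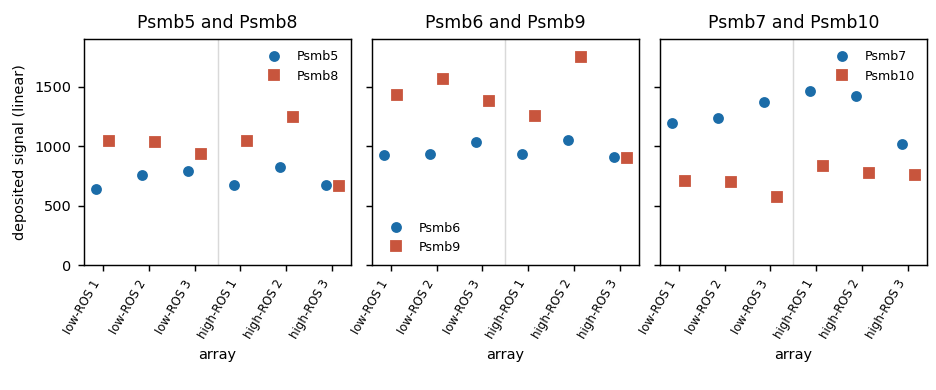
Deposited signal (y axis, linear) of the constitutive catalytic subunits (circles) and of the inducible subunits that replace them (squares) on each of the 6 arrays (x axis). Psmb8 and Psmb9 reach both their highest and their lowest values within the high-ROS group, and Psmb10 lies higher on each high-ROS array than on any low-ROS array. Heights of different genes cannot be compared.

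The inducible and constitutive genes of a pair did not shift apart beyond the spread between arrays. Within each array, log2 signal of Psmb8 minus that of Psmb5 averaged 0.46 ± 0.23 (SD, n = 3) in low-ROS CMP, against 0.39 ± 0.36 in high-ROS CMP, a difference of -0.07 (exact permutation test, 2-sided, p = 0.8). For Psmb9 minus Psmb6 the difference between the groups was -0.21 (exact permutation p = 0.7), and for Psmb10 minus Psmb7 it was 0.23 (exact permutation p = 0.5). With 3 arrays against 3 the smallest possible p is 0.1, and adjusted over the 3 pairs each p was 0.8. The Psmb8 difference changed sign to 0.14 without high-ROS replicate 3 and to 0.05 without low-ROS replicate 1. The Psmb10 difference shrank to 0.0927 without high-ROS replicate 3 and to 0.0757 without low-ROS replicate 3.

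Promoter windows of the Psmb5 and Psmb8 and of the Psmb6 and Psmb9 pairs are shown because these genes encode alternative versions of the same subunit, and that of Psmd13 because this gene had the smallest p among the members. The sequences are RefSeq's, build GRCm38.p6, from the start of each window to 20 bases past the gene's annotated start, 5′ to 3′ on the gene's strand. For the probe sets, the sources used here name no build. Capitals mark matches on either strand to TGANNNNGC (the core of the antioxidant response element bound by Nrf factors), to an interferon response element (GAAA, any 2 bases, GAAA), to CCAAT or to CCGGAAGT (an ETS factor motif). The stretches of Psmb8 and Psmb6 hold no match, since their matches lie further downstream. In the Psmd13 stretch the capitals are a CCGGAAGT match and a TGANNNNGC match that share a base.
Psmb5 (chr14:54617976-54618245, minus strand): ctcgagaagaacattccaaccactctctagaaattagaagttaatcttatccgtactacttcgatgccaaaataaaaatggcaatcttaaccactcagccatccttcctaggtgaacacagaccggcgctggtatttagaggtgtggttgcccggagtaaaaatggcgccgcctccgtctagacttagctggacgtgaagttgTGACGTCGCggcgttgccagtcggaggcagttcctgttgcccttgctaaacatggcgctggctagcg
Psmb8 (chr17:34197945-34198214, plus strand): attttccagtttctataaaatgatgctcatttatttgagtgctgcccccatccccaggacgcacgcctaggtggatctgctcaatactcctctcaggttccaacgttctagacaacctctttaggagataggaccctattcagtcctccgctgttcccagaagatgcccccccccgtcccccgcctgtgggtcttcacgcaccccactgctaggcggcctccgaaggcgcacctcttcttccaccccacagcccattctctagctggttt
Psmb6 (chr11:70525107-70525343, plus strand): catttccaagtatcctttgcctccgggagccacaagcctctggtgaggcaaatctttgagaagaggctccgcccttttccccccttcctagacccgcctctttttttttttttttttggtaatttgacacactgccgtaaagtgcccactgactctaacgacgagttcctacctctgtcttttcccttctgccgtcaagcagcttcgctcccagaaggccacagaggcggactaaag
Psmb9 (chr17:34187311-34187580, minus strand): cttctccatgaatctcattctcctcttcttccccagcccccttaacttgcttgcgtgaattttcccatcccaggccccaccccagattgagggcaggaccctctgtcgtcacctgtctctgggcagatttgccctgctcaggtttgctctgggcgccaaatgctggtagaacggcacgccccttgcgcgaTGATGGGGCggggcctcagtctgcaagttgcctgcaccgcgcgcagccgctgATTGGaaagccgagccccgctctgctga
Psmd13 (chr7:140882144-140882413, plus strand): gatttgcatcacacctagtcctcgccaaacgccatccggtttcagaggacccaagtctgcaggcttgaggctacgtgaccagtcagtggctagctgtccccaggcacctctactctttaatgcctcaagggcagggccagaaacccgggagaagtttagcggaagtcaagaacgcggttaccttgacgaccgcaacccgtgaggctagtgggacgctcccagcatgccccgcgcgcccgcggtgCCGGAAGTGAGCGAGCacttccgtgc

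Searched over the whole 300-base windows, which 41 of the 49 genes have in the table, TGANNNNGC was found in 58.5% of the member genes against 45.1% of all genes with a window. Psmb5 had matches at bases 204 to 212 and 292 to 300 of its window, Psmb6 at 242 to 250, Psmb8 at 274 to 282, Psmb9 at 191 to 199 and Psmd13 at 252 to 260. CCGGAAGT was found in 21.95% of the member genes against 4.31% of all genes, CCAAT in 39.0% against 41.1% and the interferon element in 12.2% against 3.99%. Of the genes shown, CCGGAAGT was found in Psmd13 and CCAAT in Psmb9, and the interferon element in none of the 5. These are matches of letters, not measured binding sites, and the motifs were chosen with the results known.

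Psmb8 and Psmb9 lie near each other on chromosome 17, with the peptide transporter gene Tap1 between them. The Psmb9 and Tap1 windows share 275 bases, and the genes are read in opposite directions. Tap1 had 581, 581 and 463 on the low-ROS and 573, 634 and 674 on the high-ROS arrays, a log2 fold change of 0.21 (SE 0.140), where Psmb9 had -0.22 (SE 0.192). Neither passed the test, with adjusted p of 0.739 and 0.815 (limma). On high-ROS replicate 3 Tap1 was at its highest and Psmb9 at its lowest value.

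No gene of the 19S regulatory particle passed the threshold. Of its 17 genes, 10 were higher and 7 lower, and the median log2 fold change was 0.07 (range -0.27 to 0.33). The base holds a ring of ATPases, Psmc1 to Psmc6, that unfold the substrate. Psmc4 had 1022, 1067 and 1044 on the low-ROS and 1272, 1070 and 1299 on the high-ROS arrays, which did not overlap (log2 fold change 0.21, SE 0.113, adjusted p = 0.683 by limma). Its high-ROS replicate 2, at 1069.7, lay just above low-ROS replicate 2, at 1066.8. Psmc2 did not overlap either, with 1005, 1227 and 1176 against 1291, 1275 and 1338 (log2 fold change 0.20, SE 0.111). The next brightest Psmc2 probe set, of a mean signal of 760, did overlap and had a log2 fold change of -0.03. Psmc1 had 1321, 1524 and 1515 against 1344, 1569 and 955, a log2 fold change of -0.20 that was 0.0019 without high-ROS replicate 3. Psmc3 had 1805 ± 219 (SD, n = 3) in low-ROS CMP, against 1949 ± 137 in high-ROS CMP. Psmc5 had 596 ± 65.9 and 539.7 ± 106, a log2 fold change of -0.15 that was -0.0065 without high-ROS replicate 3.

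Of the other base subunits, Psmd1 and Psmd2 are the large scaffolds and Psmd4 is a ubiquitin receptor. Psmd1 had the lowest log2 fold change of all 49 genes, -0.27 (SE 0.206, adjusted p = 0.770), from 455, 670 and 691 on the low-ROS and 481, 637 and 382 on the high-ROS arrays. Its low-ROS values spread as widely as its high-ROS values, and the groups overlapped. Without high-ROS replicate 3 its log2 fold change was -0.10, and Psmd10 then had the lowest, -0.11. Psmd2 had 782.5 ± 26.1 (SD, n = 3) and 761 ± 32.6, and Psmd4 463 ± 60.2 and 481 ± 59.9.

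The lid, which holds the deubiquitinase that frees the substrate of its tag, contained the gene with the smallest p of the members. Psmd13 (Entrez gene 23997), a structural lid subunit, had 477, 557 and 482 on the low-ROS and 598, 634 and 690 on the high-ROS arrays. Every high-ROS value lay above every low-ROS value, 505 ± 45.0 against 640 ± 46.5 (SD, n = 3), 1.26-fold higher. Its log2 fold change was 0.33 (SE 0.131, 95% interval 0.05 to 0.62), and its adjusted p of 0.587 (limma) did not pass. Leaving out high-ROS replicate 3 gave 0.28. Psmd11, another structural lid subunit, had 1440, 1435 and 1148 against 1494, 1466 and 1786, also without overlap (log2 fold change 0.24, SE 0.125). It was 0.15 when high-ROS replicate 3 was left out and 0.13 when replicate 3 of the low-ROS group was, and 3 of 4 other Psmd11 probe sets with a mean signal of 100 or more had the opposite sign. Psmd14, the deubiquitinase itself, had 2221 ± 101 and 2179 ± 175 (log2 fold change -0.03, 95% interval -0.24 to 0.18). Psmd3, another lid subunit, had 114, 105 and 96.6 against 129, 101 and 156 (log2 fold change 0.24, and 0.11 without high-ROS replicate 3).

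The assembly chaperones had the widest range, -0.26 to 0.80, with its upper end set by the brightest probe set of Psmd9. The next brightest Psmd9 probe set gave 0.10, and the next highest chaperone, Psmg1, had 0.30. Psmd9, Psmd5 and Psmd10 help build the 19S base, and Psmg1 to Psmg4 help build the alpha ring. Of the 7, 4 were higher and 3 lower (median log2 fold change 0.07). Psmd9 (Entrez gene 67151) had the largest log2 fold change of all members, 0.80 (SE 0.348, 95% interval 0.04 to 1.57, adjusted p = 0.624). It came from 237, 105 and 101 on the low-ROS and 274, 151 and 377 on the high-ROS arrays. The groups overlapped, since low-ROS replicate 1 exceeded high-ROS replicate 2. Without high-ROS replicate 3 the Psmd9 value was 0.52, and with the Gapdh control ratio of each array as a covariate it was -0.0354. Psmd10 had 361, 329 and 430 against 327, 359 and 247 (log2 fold change -0.26, SE 0.178). Psmd5 had 621 ± 43.6 (SD, n = 3) and 565 ± 123 (log2 fold change -0.15). Without high-ROS replicate 3 these values were -0.11 for Psmd10 and 0.0082 for Psmd5.

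Among the alpha ring chaperones, Psmg3 had 114, 103 and 99.5 on the low-ROS and 115, 139 and 143 on the high-ROS arrays. These did not overlap, although replicate 1 of high-ROS CMP, at 114.8, lay just above replicate 1 of low-ROS CMP, at 113.8 (log2 fold change 0.28, SE 0.190). Psmg1 had 149, 216 and 224 against 205, 265 and 263 (log2 fold change 0.30, SE 0.198), with 1 high-ROS value inside the low-ROS range. Psmg2 had 220 ± 20.4 (SD, n = 3) and 214 ± 28.0, and Psmg4 94.7 ± 18.1 and 102 ± 32.2.

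Some activators can replace the 19S particle at the ends of the barrel. Psme1, the alpha subunit of the interferon-inducible activator, had 1955 ± 40.8 (SD, n = 3) in low-ROS CMP, against 1931 ± 126 in high-ROS CMP (log2 fold change -0.02, 95% interval -0.22 to 0.18). Psme3, the nuclear activator subunit, had 2376 ± 287 and 2305 ± 121 (log2 fold change -0.04). Psme4, the large nuclear activator, had 517 ± 62.8 and 569.7 ± 50.3 (log2 fold change 0.14, SE 0.140, and 0.0694 without high-ROS replicate 3). Its other probe sets with a mean signal of 100 or more gave -0.10, 0.14 and -0.50, the last with SE 0.226 and an adjusted p of 0.679 (limma). The regulator Psmf1, first described as an inhibitor of the core, had 159 ± 26.6 and 170 ± 33.9 (log2 fold change 0.08, and -0.0609 without high-ROS replicate 3). Psme2 is not analysed here.

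The name rule also took in 2 genes that encode no proteasome part. Psmc3ip, a partner in meiotic recombination, had 316, 439 and 342 on the low-ROS and 411, 480 and 483 on the high-ROS arrays (log2 fold change 0.32, SE 0.160, adjusted p = 0.652). Psme3ip1, a protein that binds Psme3, had 842 ± 148 (SD, n = 3) and 808 ± 46.6. Without them, 26 of 47 genes were higher and the median log2 fold change stayed at 0.02.

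Many members were lowest or highest on the same arrays. Of the 49 genes, 22 had their highest value of the 6 arrays on high-ROS replicate 2 (2772 of all 18193 genes, 17.0% of genes above the median signal). On low-ROS replicate 1, 17 had their lowest value (3821 of all 18193 genes, 21.4% of genes above the median signal). These arrays were picked with the values known. High-ROS replicate 3 held the lowest value of 18 genes (36.7%, against 22.2% of all genes and 29.4% of genes above the median signal). It held the highest value of 14 (28.6%, against 23.8% and 24.7%). Compared with the mean of the other 5 arrays, 13 genes were lower on it by more than 0.3 on the log2 scale (26.5%, against 16.4% of all genes and 21.2% of genes above the median signal), a limit chosen with the values known. They were Psmb9, Psma5, Psmb8, Psmb2, Psmc1, Psmd1, Psmd8, Psmd10, Psmd5, Psma7, Psmc5, Psma4 and Psmb7, from -0.70 to -0.39. Another 7 were higher by more than 0.3 (14.3%, against 19.4% of all genes): Psmg1, Psmd13, Psmd11, Psmb11, Psmf1, Psmd3 and Psmd9, from 0.31 to 1.15. Core, base, lid and inducible subunits were thus among those low on this array, and other subunits of the same particles were not.

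This array also had the highest ratio of 3′ to 5′ Gapdh control signal, a measure of RNA integrity and labelling. The ratio was 3.19, 2.84 and 2.54 on low-ROS replicates 1 to 3 and 3.57, 2.997 and 4.53 on high-ROS replicates 1 to 3, so only low-ROS replicate 1 and high-ROS replicate 2 overlapped. The same ratio for Actb differed little, from 0.976 to 1.05 on the low-ROS arrays and from 1.03 to 1.06 on the high-ROS arrays, with 1.06 on high-ROS replicate 3. Without high-ROS replicate 3, 40 of the 49 genes were higher (81.6%, against 54.2% of all genes), with a median log2 fold change of 0.06 (0.0186 over all genes), and 0 genes passed (limma; 0.033% of all genes did; 0 at an unadjusted p under 0.05, against 6.07% of all genes). Groups then did not overlap in 12 genes, all higher, 24.5% against 12.7% of all genes (0 lower, against 8.77%). When the model also held the log2 Gapdh ratio, 43 of 49 were higher (87.8%, against 51.5% of all genes), with a median of 0.15 (0.0088 over all genes) and 0 genes past the threshold (limma; 0.0165% of all genes; 4 at an unadjusted p under 0.05, against 6.05%). Without high-ROS replicate 2, 22 of 49 were higher (53.9% of all genes), with a median of -0.04, and without low-ROS replicate 1, 23 were (55.7%), with a median of -0.01. Without low-ROS replicate 1 and high-ROS replicate 3 together, 30 of 49 were higher (61.2%, against 55.6% of all genes). The median was then 0.0197 (0.0285 over all genes). The direction of the members as a group thus rested on single arrays. Whether the Gapdh ratio accounts for these values was not tested, and this covariate cannot decide it. The ratio nearly separated the groups and was highest on high-ROS replicate 3. The parts of the ratio, of the ROS group and of this array therefore cannot be told apart.

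**Figure D3:**
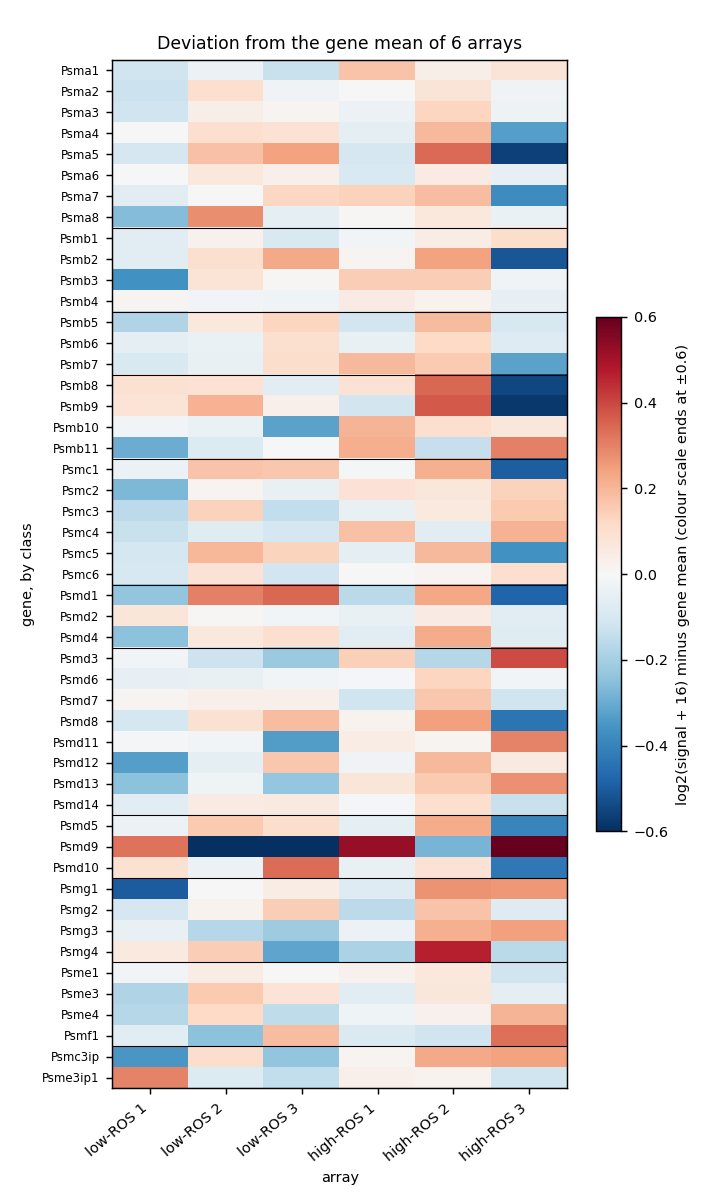
Deviation of each gene (rows, by class) from its mean over the 6 arrays (columns), in log2(signal + 16), with red above and blue below the mean. High-ROS replicate 3 is dark blue for Psma5, Psmb2, Psmb8, Psmb9 and Psmc1, among others, and Psmd9 goes past the ends of the colour scale on 3 arrays.

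**Figure D4:**
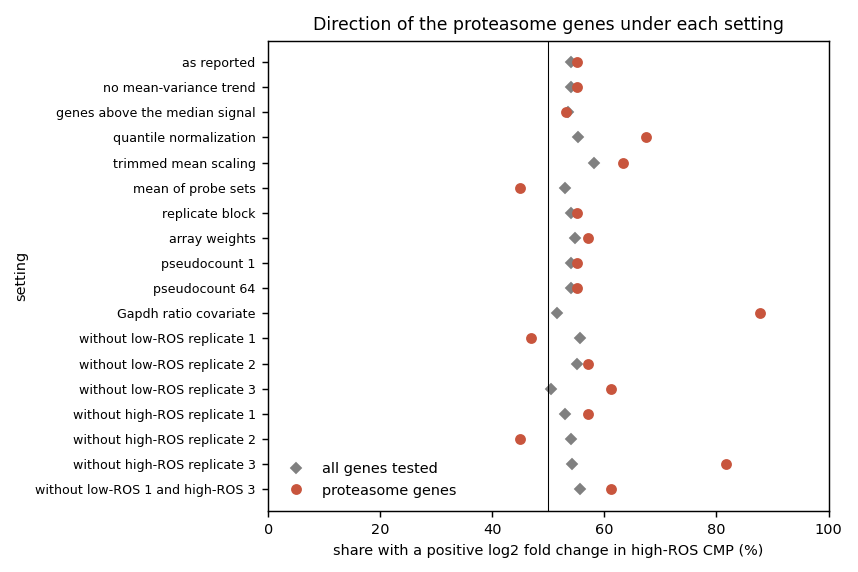
Share of the 49 proteasome genes (circles) and of all genes tested (diamonds) with a positive log2 fold change in high-ROS CMP (x axis, percent) under the reported setting and 17 alternatives (y axis). The members lie at 55.1% as reported and reach 81.6% without high-ROS replicate 3 and 87.8% with the Gapdh ratio in the model.

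Probe sets of the same gene often differed. In 19 genes at least 2 probe sets had a mean signal of 100 or more, and in 8 of these the log2 fold changes differed in sign. The median distance between the highest and the lowest log2 fold change of a gene was 0.21, against a median SE of 0.143 for the members. For Psmd9 the probe set used had 0.80, and its next, of a mean signal of 181, had 151, 181 and 189 on the low-ROS and 169, 171 and 226 on the high-ROS arrays, a log2 fold change of 0.10 (SE 0.184). For Psmc4 the probe sets gave 0.21 and -0.11, for Psma5 -0.21 and 0.11, and for Psmb3 0.18 and -0.20. Psmd13 was alike on both of its brighter probe sets, at 0.33 and 0.23.

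For Psmd4 the brightest probe set gave 0.06, but a second had 241, 226 and 192 on the low-ROS and 176, 166 and 152 on the high-ROS arrays, every high-ROS value below every low-ROS value (log2 fold change -0.38, SE 0.168, adjusted p = 0.679). Another Psmd4 probe set, near background at 15.6, 12.6 and 8.20 against 4.92, 3.39 and 1.51, had -0.54 (SE 0.145, adjusted p = 0.534), the smallest adjusted p of the members' probe sets. The next brightest probe set of Psmc6 had 238, 271 and 269 against 307, 331 and 419, log2 fold change 0.41 (SE 0.163, adjusted p = 0.655), where the brightest had 0.08. When each probe set was tested alone, 0 of 103 passed (limma; 0.02% of all probe sets did), and at an unadjusted p under 0.05 3 were higher (3.72% of all probe sets) and 4 lower (3.59%). With the probe sets of a gene averaged, 22 of 49 genes were higher (52.9% of all genes) and the median was -0.01.

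**Figure D5:**
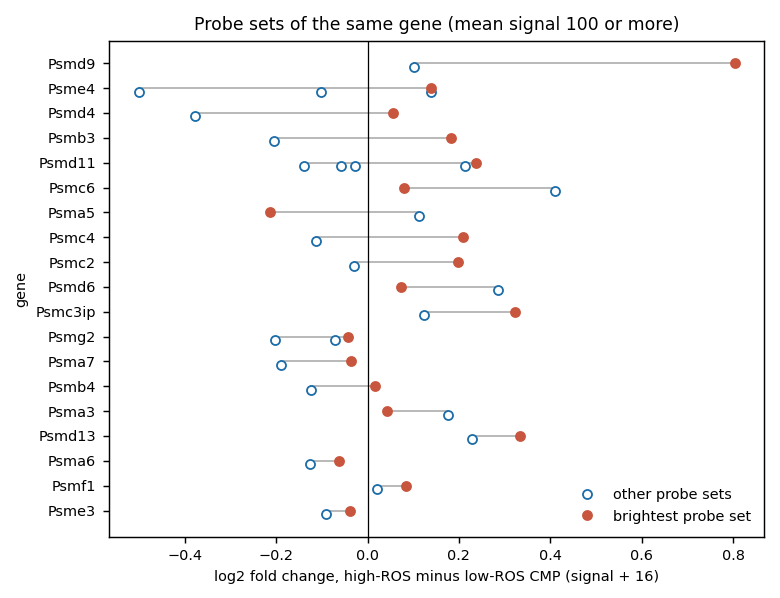
Log2 fold change (x axis, high-ROS minus low-ROS CMP, signal plus 16) of the probe sets with a mean signal of 100 or more, for the 19 genes (y axis) that have at least 2, with the brightest filled. Psmd9 and Psme4 show the widest distances between probe sets, and 8 genes have probe sets on both sides of 0.

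Partners of the proteasome outside the Psm names did not pass the test either. Of 23 listed partners and shuttle proteins, 19 were measured, 7 higher and 12 lower (median log2 fold change -0.03), and 0 past the threshold in either direction. Pomp, the chaperone that completes the core, had 1350, 1665 and 1686 on the low-ROS and 1605, 1903 and 1281 on the high-ROS arrays (log2 fold change 0.02, SE 0.147, and 0.16 without high-ROS replicate 3). Nfe2l1, the Nrf1 gene, had 223, 221 and 200 against 242, 266 and 213 (log2 fold change 0.15, SE 0.164). The smallest p of this list belonged to Zfand5, a protein that stimulates the proteasome (log2 fold change -0.17, SE 0.0830), Txnl1, a redox protein bound to the 19S particle (0.25, SE 0.136), and Vcp, the ATPase that extracts ubiquitinated proteins (-0.27, SE 0.158). Without high-ROS replicate 3, Txnl1 had 0.0965 and Vcp -0.10. Of 6 genes of ubiquitin and its activating enzymes, 1 was measured, the activating enzyme Uba6 (log2 fold change -0.20, SE 0.173, and -0.0088 without that array).

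Class I antigen processing, which uses the peptides the immunoproteasome makes, had 12 of 13 listed genes measured, 3 higher and 9 lower (median log2 fold change -0.10). None passed the adjusted threshold (0 of 12, limma), and 2 were lower and 0 higher at an unadjusted p under 0.05 (3.37% and 4.44% of all genes). These were the class I heavy chains H2-D1 and H2-K1. H2-D1 had 3572, 3879 and 2973 on the low-ROS and 2681, 3272 and 1310 on the high-ROS arrays (log2 fold change -0.61, SE 0.261, adjusted p = 0.619). H2-K1 had 3442, 4173 and 3707 against 3120, 3666 and 1960 (log2 fold change -0.41, SE 0.185). Probe sets of these closely related genes may read each other's transcripts. Tapbp, which loads peptides onto class I, had -0.32 (SE 0.158). These 3 were lowest on high-ROS replicate 3, as Psmb8 and Psmb9 were, and without that array the log2 fold changes of H2-D1, H2-K1 and Tapbp were -0.22, -0.15 and -0.12. Irf1, an interferon response factor, was lower without overlap, at 1479, 1549 and 1454 against 1315, 1242 and 1413 (log2 fold change -0.17, adjusted p = 0.704).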

How the data were processed

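RNA of sorted CMP was amplified and biotin-labelled (NuGEN Ovation), per the labels' protocols. The deposited values are linear intensities, with 1 value for each probe set on each array, and the sources used here name no summary or scaling method. Intensities started at 0.8, and array medians lay between 40.4 and 42.5. They carry no detection call, so signals near these medians are read as near background.

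Probe sets were named from the platform annotation. Of 45101, 34945 had 1 symbol and 932 several, and 64 controls were left out. Entrez identifiers of 34741 were found in RefSeq (GRCm38.p6).

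High-ROS was compared with low-ROS on log2(intensity + 16) by a linear model in limma 3.58.1 under R 4.3.3 (eBayes with a variance trend, 2-sided, 4 residual degrees of freedom), adjusted by Benjamini-Hochberg over 18193 genes, with no filter. The step was tested on simulated data. Pairs were tested with scipy 1.17.1, and figures drawn with matplotlib 3.10.9.

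The members, the lists and the tests were chosen with earlier results of these data known. Named genes were the catalytic subunits, Psma8, Psmb11, activators, Psmf1 and alpha ring chaperones, the 15 members of smallest p, the members of highest and lowest mean signal in each class (a rule for naming, not a comparison of levels) and 3 genes per related list; Psma5, Tap1, Irf1, the promoter motifs, and the probe sets and high-ROS replicate 3 values described were chosen after their values were seen. Of the named list, Adrm1 is not analysed here. Alternatives were no trend, brighter genes, quantile and trimmed mean scaling, other probe set rules, the replicate block, array weights, pseudocounts of 1 and 64, the Gapdh ratio and leaving out arrays.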

Additional observations from a re-analysis of the deposited data

How the results depend on the processing

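The count of proteasome genes at an adjusted p under 0.05 was 0 under every alternative run, and the smallest adjusted p of a member was 0.338 (limma). The count of genes at an unadjusted p under 0.05 was 2 as reported (7.81% of all genes). It was 1 without a variance trend (7.43% of all genes) and 1 with the mean of probe sets (7.17%). Quantile normalization gave 5 (8.43%), trimmed mean scaling 4 (8.46%) and the Gapdh covariate 4 (6.05%). When single arrays were left out, the count of genes ran from 0 to 7. It was 7 without high-ROS replicate 2 (10.4% of all genes), and 0 without low-ROS replicate 3 (6.33%) or high-ROS replicate 3 (6.07%). With each probe set tested alone, 7 of 103 probe sets were under 0.05, 3 higher and 4 lower (3.72% and 3.59% of all probe sets). With the Gapdh covariate the median log2 fold change moved to 0.15 for all members, 0.15 for the core and 0.17 for the assembly chaperones. The immunoproteasome median was 0.0874 over its 4 genes as first run, and -0.0769 among genes above the median signal, where Psmb11 is absent. The median of the assembly chaperones ran from -0.14 to 0.19 when single arrays were left out. The Psmb8 minus Psmb5 difference ran from -0.18 to 0.14, that of Psmb9 minus Psmb6 from -0.39 to -0.01, and that of Psmb10 minus Psmb7 from 0.0757 to 0.32. Without low-ROS replicate 1 and high-ROS replicate 3 together they were 0.26, 0.00050 and 0.19.

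Single genes changed sign with the Gapdh covariate: H2-K1 to 0.0341, Psmb9 to 0.21, Psmc1 to 0.18, Psmd1 to 0.20, Psmd10 to 0.0416, Psmd3 to -0.0667, Psmd9 to -0.0354, Tapbp to 0.0415, Uba6 to 0.0939 and Vcp to 0.10. With the mean of probe sets Psmb3 went to -0.0108, Psmc2 to -0.0124 and Uba6 to 0.0671. Without low-ROS replicate 1 and high-ROS replicate 3 together, Psmb9 went to 0.0089 and Uba6 to 0.0243. When single arrays were left out, Psmb9 ran from -0.45 to 0.0215 and Psmc1 from -0.35 to 0.0019. The cause was not tested. Another 66 sign changes, of 797 values of 47 named genes, concerned estimates within 1 SE of 0.

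Whether the replicate numbers pair the samples was not settled. Deviations of same-numbered arrays correlated at 0.119, 0.0966 and 0.0028, and those of differently numbered arrays at -0.126 to 0.0606. With 3 arrays per group such small correlations cannot decide it. With a replicate block the members' calls stayed at 0 adjusted and 2 unadjusted and their median at 0.02, and 4 of all genes passed in place of 10. With 3 arrays per group and no detection calls, dim genes such as Psmb11, Psma8 and Psmg4 are the least certain.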
